A study of Mus musculus with 2 samples.

Results

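Markers of pancreatic ducts, a set of 9 genes, were followed in the transcriptome of mouse pancreatic islets: Krt19, Krt7, Krt8, Krt18, Sox9, Spp1, Muc1, Cldn4 and Ambp. They were taken by gene symbol, with no threshold on measured values, and all 9 were among the 23652 listed genes. Islets came from mice aged 7 months, with 1 RNA sequencing library from Srsf2 flox/flox mice (the control) and 1 from Srsf2 flox/flox mice that also carried Ins2-Cre (the knockout). Both genotypes carry the floxed alleles of Srsf2, a splicing factor, and only the knockout carries Cre recombinase, which the insulin 2 promoter drives in beta cells. A difference between the libraries therefore cannot be assigned to the loss of Srsf2 rather than to Cre itself. The sources used here do not give the number or sex of the mice per library, and mice with Ins2-Cre alone were not analysed here.

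Pancreatic ducts are tubes of a simple, single-layered epithelium that carry digestive enzymes from acinar cells to the gut and add a bicarbonate-rich fluid, for which the chloride channel encoded by Cftr is needed. Their cells hold a keratin skeleton, in which a type I chain (Krt18, Krt19) pairs with a type II chain (Krt7, Krt8), and tight junctions built from claudins. Sox9 marks progenitor cells of the embryonic pancreas and is later kept in ducts. Duct cells are not part of the islet, but fragments of duct and acinar tissue can remain attached to islets when these are isolated.

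Reads on listed genes numbered 17412828 for the control and 15098659 for the knockout. With 1 library per group there is no replicate check and no test across mice. Each value below describes these 2 libraries, and the 95% intervals are exact intervals that cover counting error only. Levels are in FPKM (reads per kilobase of listed gene length and per 1000000 reads on listed genes). Ratios are FPKM in the knockout over FPKM in the control. Differences are on the log2(FPKM + 0.5) scale, on which the change of low genes is understated, and a size rule of 2-fold (1 on this scale) takes the place of a test. Over the 10666 genes with a mean of at least 1 FPKM, here called measured, the median difference was -0.36. Relative differences have this median subtracted. Srsf2 itself had 2296 control reads and 1209 knockout reads, a ratio of 0.607 (0.566 to 0.651), and 20.2% of measured genes had a lower difference.

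The 9 genes fell into groups of very different abundance. Krt7, Krt8, Krt18 and Cldn4 stood at 51.1 to 307 FPKM across both libraries and took 94.0% (control) and 89.4% (knockout) of the reads of the 9 genes. Ambp and Spp1 stood at 16.2 to 26.3 FPKM. Muc1, Krt19 and Sox9 stood at 7.15 FPKM or less in both libraries. The order of levels in the control was Krt7, Krt8, Krt18, Cldn4, Ambp, Spp1, Muc1, Krt19 and Sox9. In the knockout Krt18 stood above Krt8, and Ambp and Spp1 were close, with 26.3 and 25.3 FPKM. In the control 36.4% of listed genes had a lower FPKM than Sox9, and 99.5% had a lower FPKM than Krt7.

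**Figure D1:**
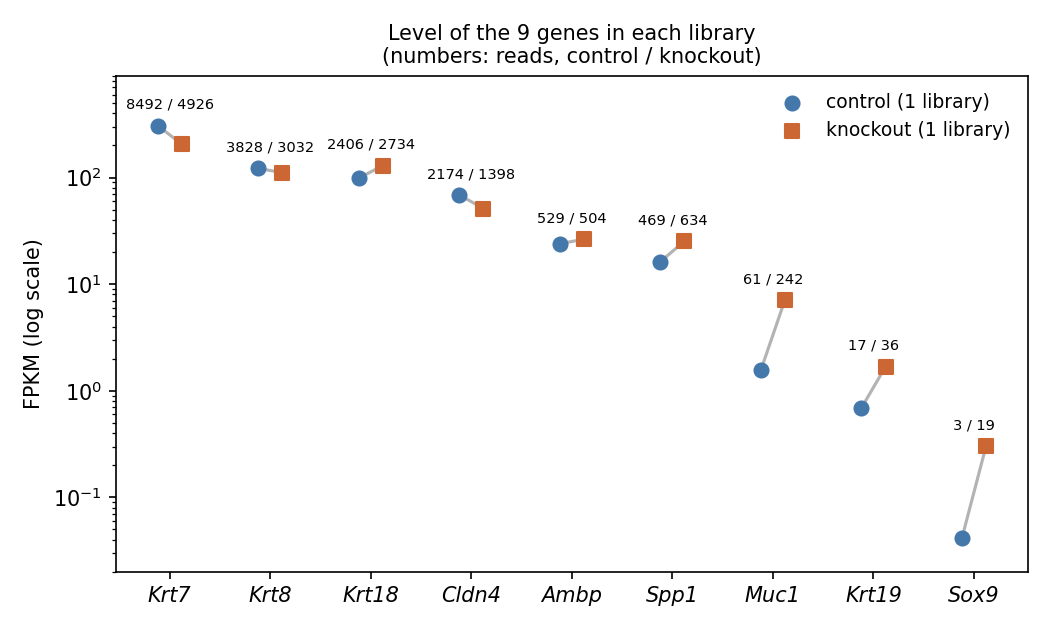
FPKM on a log axis of the 9 duct marker genes in the control library (circles) and the knockout library (squares), ordered by control level, with reads in control and knockout printed above each pair. Krt7, Krt8, Krt18 and Cldn4 lie above 50 FPKM in both libraries, while Sox9 rests on 3 and 19 reads.

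The label of duct markers held in part. Sox9 and Krt19, the members most closely tied to duct cells within the adult pancreas, together had 20 control reads and 55 knockout reads. Most reads of the set came from Krt7, Krt8, Krt18 and Cldn4, which other simple epithelia use as well. Outside the 9 genes, Cftr had 1 and 7 reads. Sctr, which encodes the receptor for secretin, the hormone that stimulates duct fluid, and the transcription factor gene Onecut1 had 0 reads in both libraries. A count of 0 allows up to 3 reads by a 1-sided 95% limit, unlike the 2-sided intervals given elsewhere. The set is therefore described gene by gene, and its sum is not read as an amount of duct tissue.

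Between the libraries, the scarce members Sox9, Krt19 and Muc1 had the highest ratios. Of the 4 abundant members, Krt7, Krt8 and Cldn4 were below an equal share and Krt18 was above it. Ratios were above 1 for 6 of the 9 genes and below 1 for 3, while 78.9% of measured genes had a ratio below 1. The counting interval lay above 1 for 5 genes (Sox9, Muc1, Krt19, Spp1 and Krt18), against 11.2% of measured genes. It lay below 1 for 3 genes, against 64.4% of measured genes. By the 2-fold rule on the log2(FPKM + 0.5) scale, 1 of 9 was higher as deposited (Muc1), against 1.57% of measured genes, and 0 of 9 were lower, against 6.32%. Relative to all genes 2 of 9 were at least 2-fold higher (Muc1 and Krt19), against 3.22%, and 0 were lower, against 1.36%. Spp1 was just short of that limit with a relative difference of 0.99. The median relative difference of the 9 genes was 0.75, where that of all measured genes is 0 by construction. Of the 9 genes 8 passed the minimum of 1 FPKM, and Sox9 did not. Sox9, below 0.5 FPKM in the control, could not have been 2-fold lower on this scale.

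**Figure D2:**
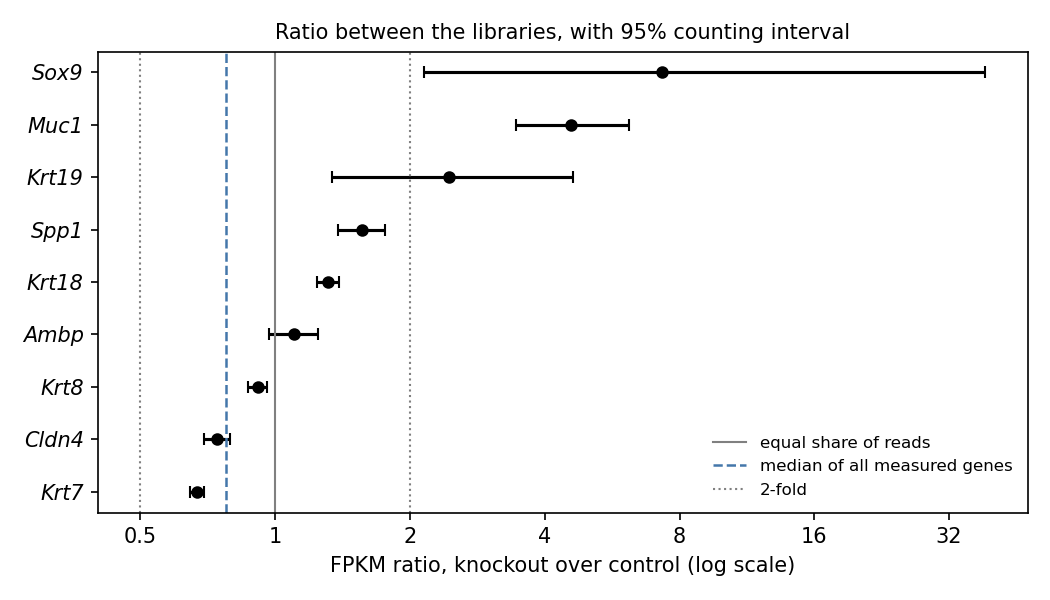
Ratio of FPKM, knockout over control, on a log axis for each of the 9 genes, with points for the ratio and bars for the 95% counting interval. The ratios run from 0.669 for Krt7 to 7.30 for Sox9, and the dashed line marks the median of all measured genes at 0.778.

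Fewer cells of a type and less RNA per cell cannot be told apart in these bulk libraries. Transcript length and acinar reads also differed along with these values. The 9 genes had a median listed length of 1658 bases against 3513 bases for measured genes. Over measured genes the median difference was 0.17 in the 1067 shortest and -0.63 in the 1067 longest. With the trend on length removed, the median relative difference was 0.40 and 6 of 9 genes were above 0. Of the 9 genes 2 (Muc1 and Sox9) were past 2-fold, against 2.01% of measured genes, which do not include Sox9. The 27 listed acinar cell markers, such as the protease gene Ctrb1, took 1.92% of control reads and 16.6% of knockout reads.

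Sox9 encodes the transcription factor that is kept in duct cells of the adult pancreas. It lies on chromosome 11 from 112782210 to 112787757 on the plus strand, where all coordinates are those of the deposited table, in the GRCm38 build. Its level was 0.0416 FPKM in the control (3 reads, Poisson interval 0.619 to 8.77) and 0.304 FPKM in the knockout (19 reads, 11.4 to 29.7). The ratio was 7.30 with a counting interval from 2.15 to 38.5. These few reads put Sox9 higher in the knockout beyond counting error, with a size that the depth leaves wide. The difference on the log2(FPKM + 0.5) scale was 0.57, since the pseudocount exceeds both levels.

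Krt19, a type I keratin typical of ducts, is a minus strand gene of chromosome 11 (100140810 to 100145926). It had 17 reads (0.689 FPKM) in the control and 36 reads (1.68 FPKM) in the knockout. The ratio was 2.44 (1.34 to 4.64), and the difference was 0.88, or 1.24 relative to all genes. Krt19 was thus higher in the knockout beyond counting error and remained a scarce transcript in both libraries. It reached the minimum of 1 FPKM through its knockout level.

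Krt18 and Krt8, the keratin partners of nearly all simple epithelia, lie beside each other on chromosome 15, with 23874 bases between them. Krt18 (102028216 to 102032026, plus strand) had 2406 and 2734 reads in control and knockout, or 98.7 and 129 FPKM. Its ratio was 1.31 (1.24 to 1.38). Krt8 (101996711 to 102004342, minus strand) had 3828 and 3032 reads, or 122 and 111 FPKM, a ratio of 0.913 (0.871 to 0.958). The partners thus lay on opposite sides of an equal share. Krt8 had a difference of -0.13 and a relative difference of 0.23, so its sign depends on the scaling, whereas Krt18 was positive on both scales, with 0.39 and 0.75. With the length trend removed the relative differences were -0.02 for Krt8 and 0.40 for Krt18.

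The balance within this pair does not depend on how the libraries are scaled. Krt8 stood at 1.23 times the FPKM of Krt18 in the control and at 0.860 times in the knockout. The knockout ratio was 0.697 of the control ratio (0.648 to 0.750). Epcam, which encodes an adhesion protein of epithelial cells and had 3722 and 3113 reads, served as a second reference. Against Epcam, Krt18 stood at 1.36 of its control ratio (1.26 to 1.46), while Krt8 stood at 0.947 (0.885 to 1.01), an interval that includes 1. Krt8 has a processed pseudogene in the GENCODE annotation, and the sources used here do not say how reads shared between copies were counted.

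Krt7, a type II keratin of ducts and other glandular epithelia, was the most abundant of the 9 genes. It lies on chromosome 15 from 101412403 to 101427806 on the plus strand. It had 8492 reads (307 FPKM) in the control and 4926 reads (206 FPKM) in the knockout. Its ratio of 0.669 (0.646 to 0.693) was the lowest of the 9 genes and lay below the median ratio of all measured genes, 0.778. Relative to all genes the difference was -0.22, and 30.4% of measured genes had a lower difference. Krt7 stood at 3.12 times the FPKM of Krt18 in the control and at 1.59 times in the knockout. It also stood at 2.96 times Epcam in the control and 2.06 times in the knockout. Krt7 was thus lower against Krt18, Krt8 and Epcam in the knockout library, with a ratio to Krt8 of 0.732 of that in the control (0.690 to 0.777).

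The summed level of the type II chains Krt7 and Krt8 was 4.32 times that of the type I chains Krt18 and Krt19 in the control (429 and 99.4 FPKM). In the knockout it was 2.42 times (317 and 131 FPKM). Of 53 listed keratin genes, 37 had 0 reads in both libraries. Krt7, Krt8 and Krt18 together took 96.4% of keratin reads in the control library and 95.4% in the knockout library. The highest keratin outside the 9 genes was Krt222 in the control (2.84 FPKM) and Krt1 in the knockout (3.52 FPKM). Krt23, another keratin of the wider duct list, had 5 and 21 reads, and Krt20 had 0 in both libraries. The keratin RNA of these islets was therefore made up almost wholly of Krt7, Krt8 and Krt18, and the partner with the lowest control level of the 3, Krt18, had the highest ratio of them.

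**Figure D3:**
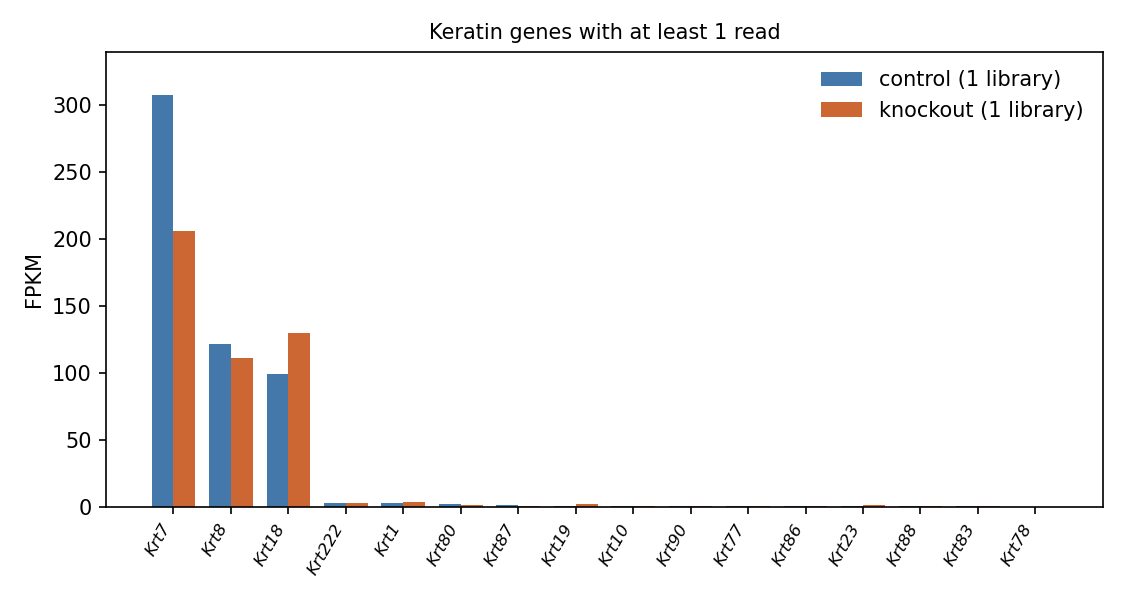
FPKM of the 16 keratin genes with at least 1 read, as bars for the control and the knockout library (1 library each), ordered by control level. Krt7 stands at 307 and 206 FPKM and Krt18 at 98.7 and 129 FPKM, while Krt19 is barely visible at 0.689 and 1.68 FPKM.

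At the cell surface, Muc1 and Cldn4 went opposite ways. Muc1 encodes a transmembrane mucin of the apical surface that faces the duct lumen, and acinar cells carry it too. It lies on chromosome 3 from 89229056 to 89233381 on the plus strand. Muc1 had 61 reads (1.56 FPKM) in the control and 242 reads (7.15 FPKM) in the knockout. The ratio was 4.58 (3.44 to 6.16), and the difference was 1.89, or 2.25 relative to all genes, above 99.2% of measured genes. The authors' deposited table, a DESeq comparison without replicates, gives Muc1 a p-value of 0.000311 and an adjusted p of 0.0620. It ranked 83rd by p-value in that table, in which 82 of 16528 genes had an adjusted p under 0.05 (0.496%). The other 8 genes had an adjusted p of 1 there. Trim46, the nearest listed gene at 788 bases from Muc1, had 223 and 185 reads, a ratio of 0.957.

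Cldn4 encodes claudin 4, a tight junction protein that seals the space between epithelial cells. The gene occupies 134945123 to 134946934 on the minus strand of chromosome 5. It had 2174 reads (68.9 FPKM) in the control and 1398 reads (51.1 FPKM) in the knockout, a ratio of 0.742 (0.693 to 0.794). This ratio lay close to the median of all measured genes, with a relative difference of -0.06. Cldn3, which encodes another epithelial claudin, stood at 27.1 and 34.5 FPKM, a ratio of 1.27 (1.14 to 1.42). Cldn4 thus had 2.54 times the FPKM of Cldn3 in the control and 1.48 times in the knockout. Cldn10 had 4 and 78 reads, a ratio of 22.5 (8.44 to 84.6), and Cldn7 had 10 reads in each library. The claudins named here did not share 1 direction.

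Spp1 and Ambp encode secreted proteins. Spp1, on chromosome 5 from 104435111 to 104441053 on the plus strand, encodes osteopontin, an adhesive phosphoprotein made by duct cells and also by macrophages. It had 469 reads (16.2 FPKM) in the control and 634 reads (25.3 FPKM) in the knockout, a ratio of 1.56 (1.38 to 1.76). Spp1 was higher in the knockout beyond counting error. In the same library 15 macrophage markers, 12 of them measured, together took 237 reads per 1000000 against 196 in the control. This was a ratio of 1.21 (1.16 to 1.27). While 78.9% of measured genes had a ratio below 1, 12 of the 15 markers were above 1 and 2 below it. The most abundant were the complement gene C1qa, with 61.1 and 72.0 FPKM, and the lysozyme gene Lyz2, with 30.7 and 35.7 FPKM. Of the others, Cd68 had 34 and 73 reads, Csf1r, which encodes a receptor that macrophages need, had 260 and 151, and Aif1 had 0 in both libraries. The part of macrophages in the Spp1 value was not tested.

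Ambp encodes the precursor of alpha-1-microglobulin and bikunin, a protease inhibitor that the liver also secretes. The gene occupies 63143275 to 63154172 on the minus strand of chromosome 4. It had 529 reads (24.0 FPKM) in the control and 504 reads (26.3 FPKM) in the knockout. The ratio of 1.10 had an interval from 0.971 to 1.24, so a difference from an equal share was not detectable at this depth. Relative to all genes the difference was 0.50. Of the liver genes, Apoa2 had 17 and 26 reads, Apoa1 had 11 and 7, and Alb, the albumin gene, had 3 and 8. Ahsg had 0 in both libraries.

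The 9 genes together had 17979 control reads and 13525 knockout reads. This was 1033 reads per 1000000 (Poisson interval 1017 to 1048) against 896 (881 to 911), a ratio of 0.868 (0.848 to 0.887). The sum was lower in the knockout while the median relative difference of the 9 genes was above 0. Krt7 alone gave 47.2% (control) and 36.4% (knockout) of these reads. With reads of the acinar markers taken out of both totals the ratio of the sum was 1.02, and without Krt7 it was 1.045. The direction of the sum is thus set by these choices. Krt19, Sox9, Muc1 and Spp1 together took 3.06% (control) and 6.88% (knockout) of the reads of the 9 genes. No library scaling alters this share within the set. These are the members with the highest ratios, so the higher share follows from how they were picked and is no separate result.

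A wider list of 39 other genes of duct cells also held both near-absent and abundant transcripts. Of the 39, 16 had at most 10 reads in each library and 6 had 0 reads in both. At the other end, 5 had a mean of at least 50 FPKM: Epcam, Cdh1, Cd24a, Tff2 and Clu. By the 2-fold rule 6 of 39 were higher as deposited and 0 lower. Among the 18 measured ones 5 were higher and 0 lower, against 1.57% and 6.32% of measured genes. Relative to all genes 8 of the 39 were higher and 0 lower, or 7 and 0 of the measured ones, against 3.22% and 1.36%. A gene below 0.5 FPKM in the control cannot be 2-fold lower on this scale. The median relative difference over all 39 was 0.36, which is the value of a gene with 0 reads in both libraries. Of the 39, 18 were measured, Cldn10 and Tff3 among them through their knockout level alone.

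The higher genes of the wider list were led by Tff2, which encodes a trefoil peptide secreted with mucus, at 38.4 FPKM in the control and 495 FPKM in the knockout, a ratio of 12.9 (11.6 to 14.3). Its relative Tff3 had 3 and 13 reads, with a counting interval of the ratio from 1.37 to 27.3, and Tff1 had 0 in both libraries. Clu, which encodes the secreted chaperone clusterin, had 2811 and 5396 reads, a ratio of 2.21 (2.11 to 2.32). Cd24a, which encodes a small surface protein of many epithelia, had a ratio of 2.03 (1.88 to 2.18). Fxyd3, which encodes a regulator of the sodium pump, had 24 and 41 reads and a ratio of 1.97 (1.16 to 3.41). Cftr had a ratio of 8.07 (1.04 to 364) on its 1 and 7 reads.

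**Figure D4:**
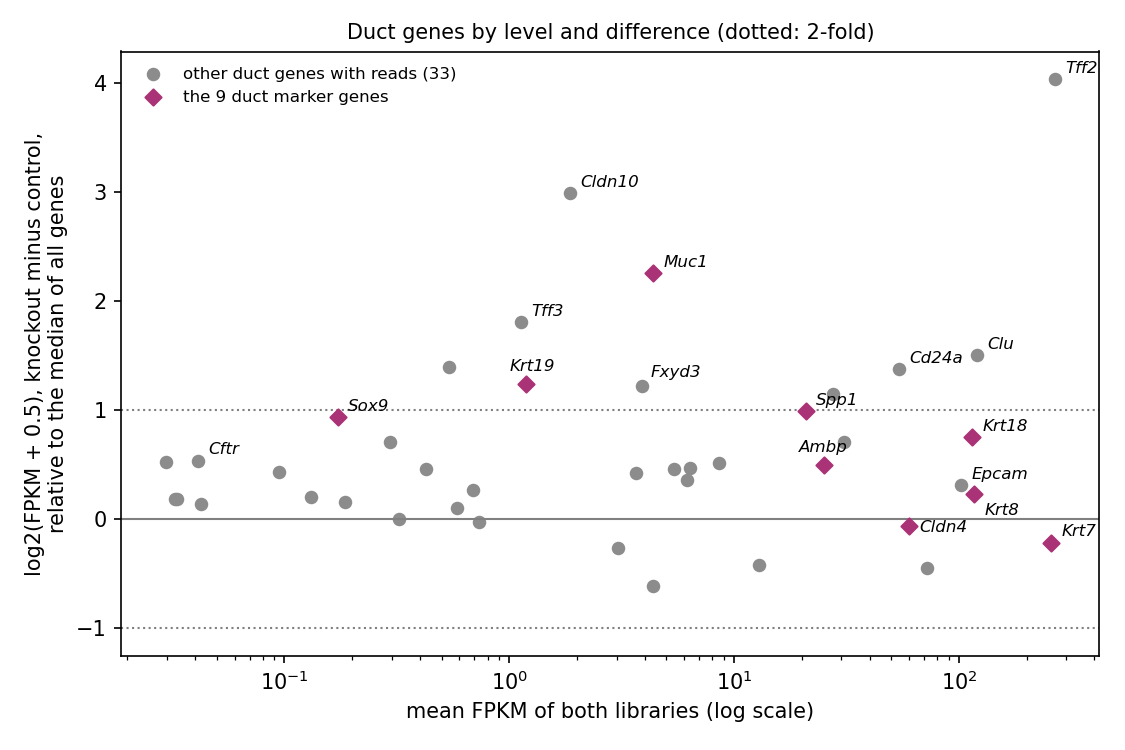
Mean FPKM of both libraries on a log axis against the difference of log2(FPKM + 0.5), knockout minus control, relative to the median of all genes, for the 9 duct marker genes (diamonds) and the 33 other duct genes with reads (circles). Tff2 lies highest at 4.03, Muc1 is the highest of the 9 genes at 2.25, and Krt7 is the lowest of the 9 at -0.22.

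The libraries also differed in markers of other cells. Of the 27 acinar markers 25 passed the 2-fold rule upward as deposited and 0 downward. Of the 25 measured ones 24 passed upward, against 1.57% of measured genes, and 0 downward, against 6.32%. The median ratio over the 25 measured ones was 9.04. Muc1, at 4.58, lay below this median ratio and Tff2 and Cldn10 lay above it. Per 1000000 reads of the acinar markers, Muc1 had 183 control reads and 96.5 knockout reads, and Sox9 had 8.99 and 7.58. Krt7 had 25454 and 1964 on the same scale. No member had a ratio as high as that of the acinar markers together, 8.67, although the interval of Sox9 reaches above that value. The acinar transcription factor gene Ptf1a had 2 and 26 reads. Ratios of the measured acinar markers ran from 1.45 for Bhlha15 (781 and 980 reads) to 43.8 for Clps (78 and 2964 reads). The part of acinar tissue in the values of the 9 genes was not tested.

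Lymphocyte markers, with Cd79a highest at 20.5 and 50.9 FPKM, together had 46.6 and 116 reads per 1000000. Relative to all genes 8 of 10 were at least 2-fold higher, or 5 of the 6 measured ones, against 3.22% of measured genes. Endothelial markers, led by Plvap, together had 633 and 519 reads per 1000000, and 0 of 10 were past 2-fold on either scale. The shares of measured genes were 1.57% higher and 6.32% lower as deposited, and 3.22% and 1.36% relative to all genes. Stromal markers, led by Rgs5, had 171 and 172 reads per 1000000. Beta cell markers took 23.6% of control reads and 21.5% of knockout reads. Of these 14 genes, 7 were at least 2-fold lower as deposited, against 6.32% of measured genes, or 4 once set against all genes, where the share was 1.36%. The other endocrine markers, led by Gcg, took 3.09% and 4.80%. The part of these cells in the values of the 9 genes was not tested.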

How the data were processed

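Per the file headers, the deposited table gives each library's whole-number read count per gene and its FPKM. All 47304 deposited FPKM values were recomputed from read count, gene length and library total. The authors' deposited comparison holds normalised counts as a signal (reads divided by size factors of 1.23 and 0.816), the fold ratio and its log2 value, the p-value and the adjusted p-value. Bowtie2 2.4.2, DESeq, mm10 and GRCm38 are named per the submitters' processing notes. The sources used here give neither the counting tool nor its strand setting.

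The members and gene lists were chosen with earlier results of these data known. The tests had been laid out for FPKM, and counts turned out to be present as well. With no replicates, edgeR or another count model could not estimate the spread and was not fitted. Ratios have exact conditional binomial 95% intervals. Ratios between genes, of which 12 pairs were computed and chosen after their values were seen, have exact conditional odds ratio intervals. Without molecular identifiers, reads are not independent molecules, and intervals cover counting error only. All 9 members matched RefSeq coordinates (GRCm38.p6) and 0 overlapped another listed gene. The length trend was a lowess curve (fraction 0.3) of the difference on log2 length. Of the wider duct list, up to 6 measured genes with the largest relative difference were named with Cftr and Epcam. Another gene of that list was left out of all counts and is not reported here. The rule also took 3 genes of the list of epithelial contact and other epithelial genes. For other cells the rule took the 2 most abundant markers per list. Further genes named beside these were chosen after their values were seen. Calculations used Python 3.11.15, SciPy 1.17.1 and statsmodels 0.14.6, and were tested on simulated data. Alternatives were other pseudocounts, minimum levels, scalings, a 1.5-fold rule and removal of the length trend.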

Additional observations from a re-analysis of the deposited data

How the results depend on the processing

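No member was at least 2-fold lower under any of the 10 alternatives run. The count of members at least 2-fold higher as deposited, 1, became 3 with a pseudocount of 0.1 FPKM or with the 1.5-fold rule, and 2 with median ratio scaling, the authors' normalised counts, the total without the 20 most abundant genes and the total without the acinar list. Relative to all genes the count of 2 became 4 with a pseudocount of 0.1 FPKM, 1 with a pseudocount of 1 FPKM and 5 with the 1.5-fold rule. It became 3 with each of the same 4 scalings. Median ratio scaling and the authors' normalised counts gave identical values throughout, so they are not independent checks. The median relative difference, 0.75, became 0.66 with a pseudocount of 1 FPKM, 0.61 with no filter on low values and 0.40 with the length trend removed. The ratio of summed reads, 0.868, became 1.02 without the acinar list in the totals and 1.045 without Krt7. Of the 81 alternative values of single genes, 30 shifted enough from the main value to be classed as moved. The 81 include the values under other minimum levels, which could not move. Muc1 ran from 1.67 to 2.21, Spp1 from 0.30 to 0.997, Krt19 from 0.49 to 1.18 and Sox9 from 0.32 to 1.51, each above 0 in all 7 alternatives that could change a single gene (the minimum level cannot). Krt7 ran from -0.92 to -0.20 and Cldn4 from -0.72 to -0.05. Krt8 ran from -0.42 to 0.25, and its sign depends on the scaling. Krt18 ran from -0.01 to 0.77 and Ambp from -0.30 to 0.51, negative with the length trend removed and positive under all scalings run. Scalings moved the median of all genes from -0.36 to between -0.15 and -0.02. No paired analysis was possible because each group has 1 library. Counting error leaves the ratios of genes with few control reads wide, such as Sox9, Cftr, Tff3 and Cldn10.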

Other observations

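A list of genes of simple epithelia, most of them for contacts between cells, lay close to the median of all genes. Of its 21 genes, 17 of which were measured, 4 are also in the wider duct list. The list also holds genes other than contact genes, such as Esrp1, Esrp2, Grhl2, St14, Spint1 and Spint2. Its counts, median and sum are therefore not those of contact genes alone. As deposited 0 of the 21 were at least 2-fold higher and 1 was at least 2-fold lower, against 1.57% and 6.32% of measured genes. Relative to all genes 0 of the 21 were past 2-fold in either direction, against 3.22% higher and 1.36% lower. Their median relative difference was 0.09, and their summed reads had a ratio of 0.768 (counting interval 0.755 to 0.781). The gene past 2-fold was Dsp, which encodes desmoplakin, the protein that ties keratin filaments to desmosomes. It had 1381 reads (8.27 FPKM) in the control and 548 reads (3.78 FPKM) in the knockout, a ratio of 0.458 (0.414 to 0.506). Tjp1, which encodes the tight junction scaffold ZO-1, had 13.3 and 7.26 FPKM, a ratio of 0.544 (0.503 to 0.588). Both are long genes, of 9592 and 8622 bases, and with the length trend removed their relative differences were -0.40 and -0.20. The basal adhesion genes Itgb4 and Lamb3, scarce in both libraries, were higher in the knockout library, Itgb4 with 16 control and 40 knockout reads and Lamb3 with 7 and 23.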
